A study of Caenorhabditis elegans with 12 samples.

Results

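The genes described here encode proteins of the mitochondrial respiratory chain, the factors that assemble its complexes, the protein import machinery and the mitochondrial ribosome of Caenorhabditis elegans. They were picked by gene name, as all genes whose symbol begins with one of 16 prefixes. These include ndu, nuo-, cox-, atp-, coa-, nuaf-, timm-, tomm-, mrpl- and mrps-. The set was chosen with earlier results of these data known. The rule found 41 genes among the 8187 genes with a named probe, and each of the 41 carried 1 probe. They fall into 19 subunits of complex I, 4 of complex IV, 1 of complex V, 10 assembly factors, 3 import proteins and 4 proteins of the mitochondrial ribosome. The reference annotation (WBcel235) holds 154 protein-coding genes under the same prefixes, so 113 of them, including all of complexes II and III, were not analysed here. The 41 genes lie on 5 chromosomes, 11 on I, 9 on II, 8 on III, 10 on IV and 3 on V.

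The respiratory chain passes electrons from NADH and succinate to oxygen and pumps protons across the inner mitochondrial membrane, and complex V uses the returning protons to make ATP. Most of its subunits are encoded in the nucleus, translated in the cytosol and carried into mitochondria by the TOM and TIM translocases, while a few core subunits are encoded by mitochondrial DNA and made on the mitochondrial ribosome. Assembly factors are not part of the finished complexes but help to build them. In the worm, respiratory chain function is known for its part in growth, germ line development and lifespan.

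Two-colour arrays measured 6 LiCl samples, wild-type (N2) hermaphrodites kept for 48 h at 25 °C on growth plates with 10 mM lithium chloride, and 6 control samples, N2 hermaphrodites kept for the same time at 25 °C on plates without it. All worms had been raised from the egg at 20 °C, and each sample held 50 picked worms. Every sample was labelled with Cy5 and hybridised on an array of its own with the same Cy3-labelled RNA from N2 worms of mixed stages. Values are the deposited log ratios, read as log2 of sample over mixed-stage reference. That direction is likely from the dyes in the labels but is not stated, and the log base and any scaling are unknown, so differences are given in log ratio units and not as folds. If the ratio were turned, the sign, order and direction of every log ratio and difference given here would be reversed. Genes said to rise would then fall, and the highest gene would be the lowest. Correlations, SDs and p-values would stay as they are. Array medians lay between 0.018 and 0.044, each array lacked values for 16 to 150 of its 22370 probes, and all 41 genes had a value on all 12 arrays. Whole worms were measured, so fewer cells of a type and less RNA per cell cannot be told apart.

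Subunits and assembly factors stood mostly on opposite sides of the reference. In LiCl worms as in control worms, 23 of the 24 subunits of complexes I, IV and V had a mean log ratio below 0, and nduv-3, a subunit of the NADH-oxidising module of complex I, was the exception. The median log ratio of the 24 subunits was -0.71 in LiCl worms and -0.86 in control worms, against 0.03 and 0.04 over all probes. The lowest was atp-1, the alpha subunit of the ATP synthase, with -1.92 ± 0.32 in LiCl worms and -1.44 ± 0.39 in control worms (SD, n = 6 each). Next above it in control worms were cox-7C (-1.41) and cox-4 (-1.36), whose means differed from that of atp-1 by less than the SD. Among the 10 assembly factors, 8 had a control mean above 0 and the median was 0.41 in LiCl worms and 0.46 in control worms. The highest of them in control worms was nuaf-5 (0.81 ± 0.20), a complex I assembly factor, and coa-3 (-0.24) and coa-4 (-0.20) were the ones below 0. The import gene timm-17B.2 had the highest log ratio of the 41 in both groups. These log ratios set the sampled worms against mixed-stage worms and are not amounts of transcript, and they are given as a description with no test.

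**Figure D1:**
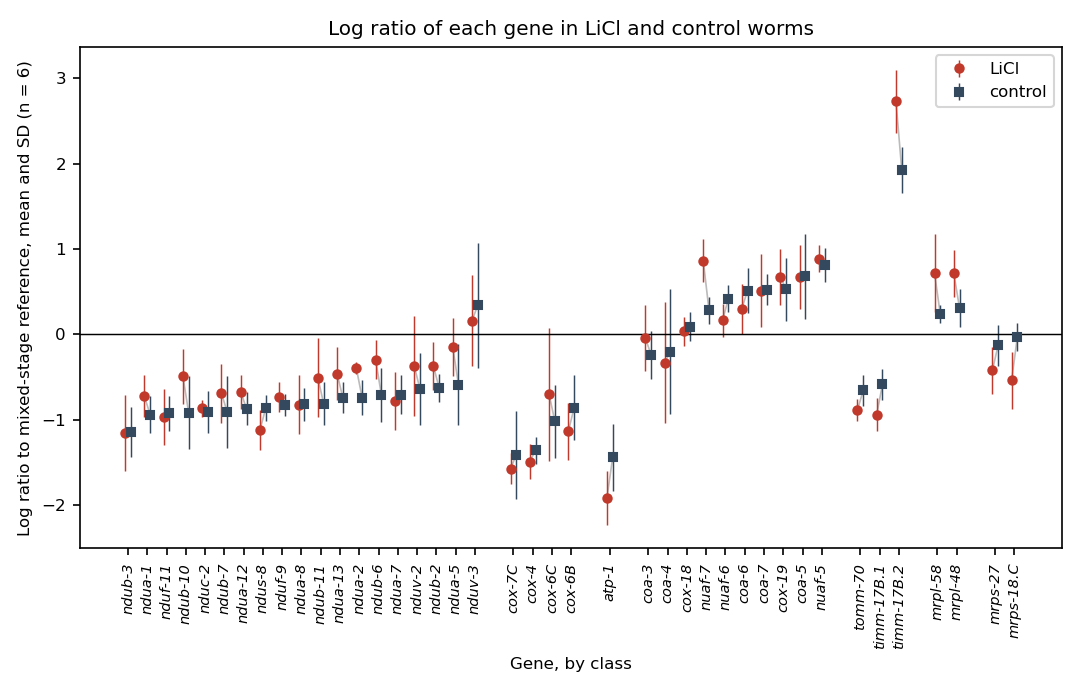
Mean log ratio to the mixed-stage reference (vertical axis, deposited units) of each of the 41 genes (horizontal axis, grouped by class and ordered by the control mean) in LiCl worms (red circles) and control worms (dark squares), with bars for the SD (n = 6 arrays each). Subunits of complexes I, IV and V lie below 0 except nduv-3, 8 of 10 assembly factors lie above 0 in control worms, and timm-17B.2 lies highest.

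After LiCl, 2 of the 41 genes passed the test, and both rose: timm-17B.2, a channel-forming subunit of the inner membrane translocase, and nuaf-7, a complex I assembly factor. That is 4.88% of the genes, whereas 8.0% of all probes were called in either direction, 4.5% higher and 3.5% lower in LiCl. The other 39 genes did not pass. An unadjusted p below 0.05 was found for 9 genes (6 with a higher and 3 with a lower mean in LiCl), or 22.0%, against 22.8% of all probes, and 1 gene, ndua-2, had groups that did not overlap, against 6.61% of all probes. Differences, always LiCl minus control, ranged from -0.51 in mrps-18.C to 0.80 in timm-17B.2, with 21 above and 20 below 0. Their median was 0.05, against 0.02 over all probes and 0.06 over all named genes. With 1 array left out this median ran from 0.004 (without control replicate 4) to 0.12 (without control replicate 2), and on the 8 arrays with the higher array weight, a setting added after the data were seen, it was -0.01. The median size of the difference was 0.23 in these genes and 0.32 over all probes. The arrays of a group also spread less here, with a median within-group SD of 0.28 against 0.48 over all probes. The standard error of a difference had a median of 0.18. Adjusted p-values come from limma with Benjamini-Hochberg adjustment over all 22370 probes.

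**Figure D2:**
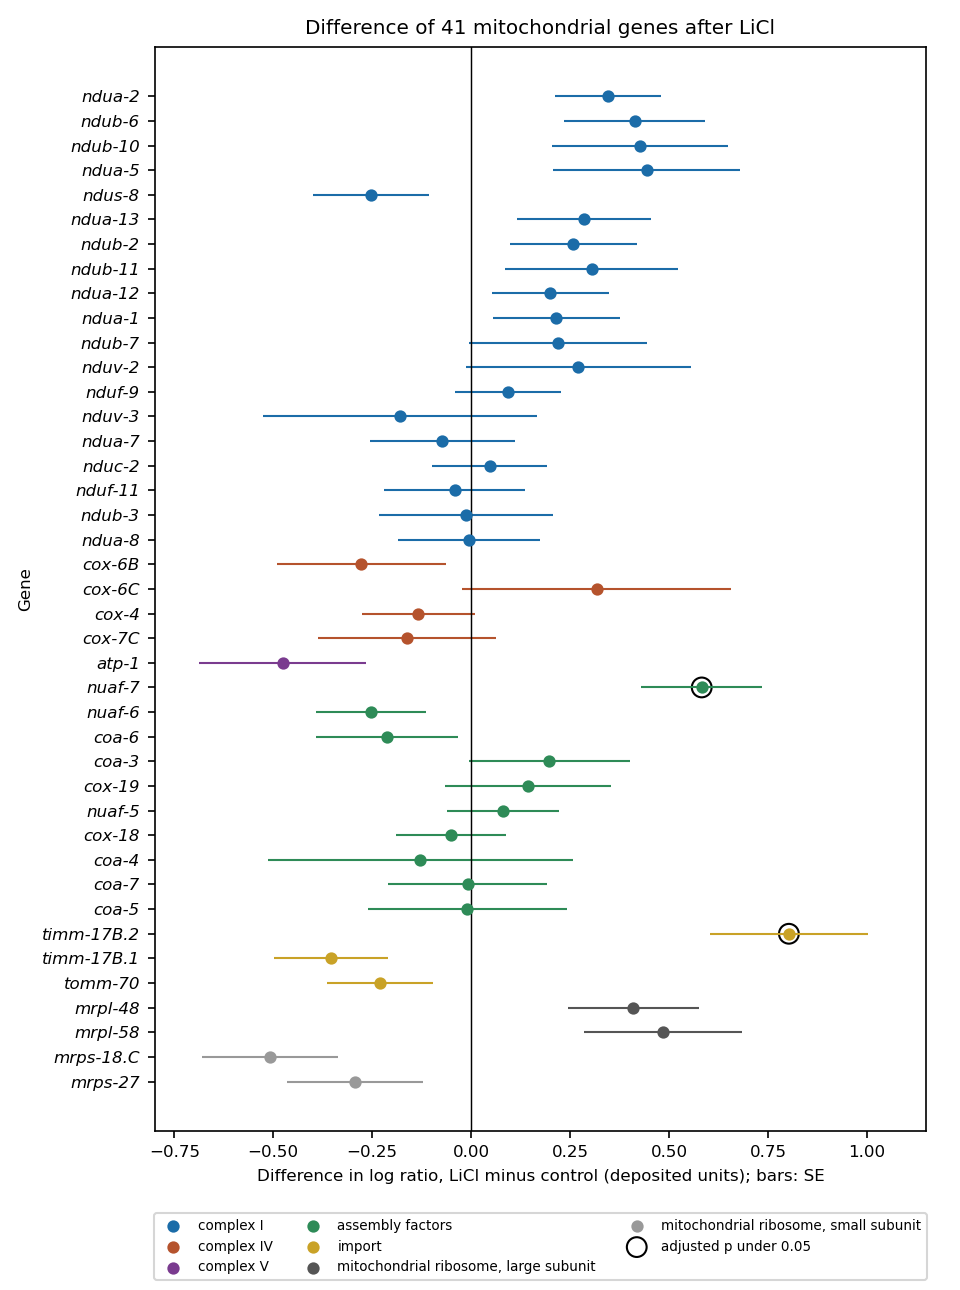
Difference in log ratio, LiCl minus control (horizontal axis, deposited units), of each gene (vertical axis), with bars for the standard error and colours for the class (6 arrays per group). Circled genes had an adjusted p under 0.05. Only timm-17B.2 (0.80) and nuaf-7 (0.58) are circled, and 13 of 19 complex I subunits lie to the right of 0.

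Markers of tissues were read from the same fit, in which 8.0% of all probes were called. Of 9 germ line and oocyte genes 3 fell (syp-6, mip-1 and enri-2) and none rose. The mean of the 9 was 0.54 to 1.05 on LiCl arrays and 1.11 to 1.50 on control arrays, with no overlap. The germ line list was drawn up with earlier results of these data known, so neither its count nor its lack of overlap is independent evidence. Of 10 sperm genes 1 rose and 1 fell, of 24 neuropeptide genes 1 rose, and of 3 pharynx genes 1 rose and 1 fell. The 1 call among 24 neuropeptide genes is below the share of all probes. The mean of the sperm genes was 0.11 to 1.27 on LiCl arrays and 0.09 to 1.10 on control arrays, that of the neuropeptide genes -1.27 to -0.92 and -1.30 to -1.07, and that of the pharynx genes -2.58 to -1.74 and -2.70 to -1.55. The intestine was represented by cpr-9 alone, which did not pass, and no named probe stood for muscle, hypodermis or embryo markers. The part of these tissues in the differences of the 41 genes was not tested.

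Import was represented by 2 paralogues of the inner membrane translocase subunit Tim17 and by the outer membrane receptor tomm-70. Tim17 proteins form the path by which presequence-bearing proteins cross or enter the inner membrane. timm-17B.2 (probe 13253, chromosome IV) had log ratios of 2.78, 2.88, 3.04, 2.75, 2.93 and 2.00 in LiCl replicates 1 to 6, against 2.26, 2.20, 1.79, 1.85, 1.52 and 1.95 in control replicates 1 to 6. Of the 6 LiCl arrays, 5 lay above every control array, and LiCl replicate 6 lay among the controls. The difference was 0.80 ± 0.20 (SE, limma adjusted p = 0.0276).

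The call of timm-17B.2 was lost with any one of LiCl replicates 2, 3, 4 and 5 or control replicates 3, 4, 5 and 6 left out, when the difference stayed between 0.72 and 0.81 and the adjusted p lay between 0.0502 and 0.0607. With arrays quantile normalised the difference was 0.37 and was not called (adjusted p = 0.315). timm-17B.2 sits in the upper tail of every array, between the 97.2 and 99.5 percentile in LiCl and between the 95.7 and 99.0 percentile in control, and this tail itself was longer in LiCl, where the 95th percentile of an array was 1.67 ± 0.08 against 1.51 ± 0.03 in control (SD, n = 6 each). The part of that tail in the difference was not tested.

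Its paralogue timm-17B.1 (probe 20530, also on chromosome IV) stood on the other side of 0. Its log ratios were -0.76, -1.07, -0.88, -0.98, -1.22 and -0.72 in LiCl replicates 1 to 6, against -0.42, -0.43, -0.80, -0.43, -0.70 and -0.74 in control replicates 1 to 6. LiCl arrays were the lower ones, 4 of 6 below every control array, but the difference of -0.35 ± 0.14 (SE) did not pass the test (limma adjusted p = 0.159). The gap between the paralogues, timm-17B.2 minus timm-17B.1 on the same array, was 3.67 ± 0.51 in LiCl worms and 2.51 ± 0.21 in control worms (SD, n = 6 each), with the 6 LiCl arrays above every control array. The lowest LiCl array, replicate 6 (2.73), lay only just above the highest control array, replicate 6 (2.69). On average the gap was 1.16 wider in LiCl worms. The pair was set side by side after the single differences had been seen, so this is a description with no test.

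tomm-70, a receptor that takes carrier precursors from cytosolic chaperones, was at -0.89 ± 0.13 in LiCl worms and -0.66 ± 0.18 in control worms (SD, n = 6 each). The difference of -0.23 ± 0.13 (SE) did not pass (limma adjusted p = 0.343).

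**Figure D3:**
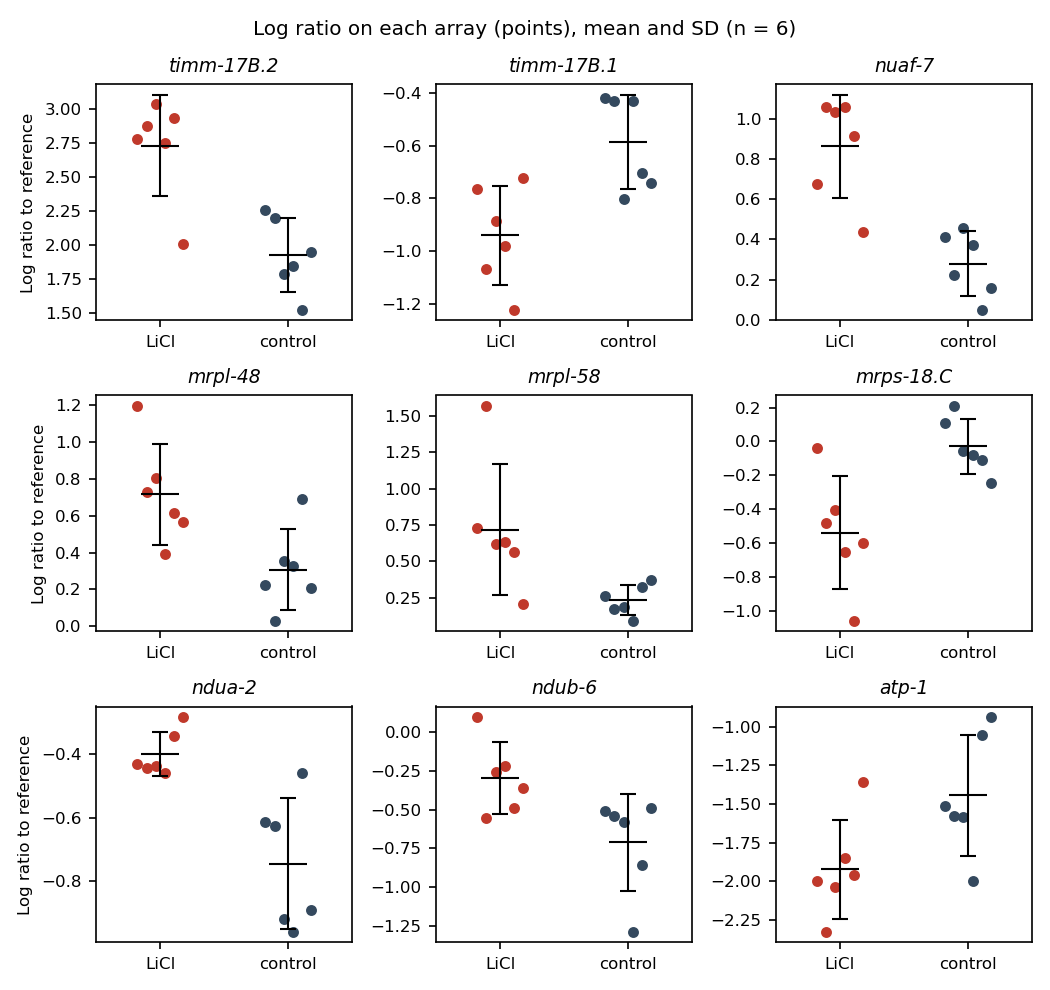
Log ratio to the reference (vertical axis, deposited units, a scale of its own in each panel) of the 9 genes with an unadjusted p under 0.05, in the 6 LiCl arrays (red, left) and the 6 control arrays (dark, right), with the mean and SD. In timm-17B.2 and nuaf-7, 5 of 6 LiCl arrays lie above all control arrays, and in ndua-2 all 6 do.

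Of the 10 assembly factors, 1 rose and none fell, where 8.0% of all probes were called, and the median difference was -0.01. A single call among 10 genes is near that share. nuaf-7 (probe 14409, chromosome III), whose human counterpart NDUFAF7 methylates an arginine of a complex I core subunit, had log ratios of 0.68, 1.06, 1.03, 1.06, 0.91 and 0.44 in LiCl replicates 1 to 6, against 0.41, 0.23, 0.46, 0.37, 0.05 and 0.16 in control replicates 1 to 6. Only LiCl replicate 6 reached down into the control values. The difference was 0.58 ± 0.15 (SE, limma adjusted p = 0.0362). It kept a size between 0.54 and 0.67 with any 1 array left out, but among those 12 fits the call held only without LiCl replicate 1 or 6. Without any one of the other 10 arrays the adjusted p lay between 0.0504 and 0.0780, and on the 8 arrays of higher weight it was 0.0505.

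The other complex I assembly factors did not pass. nuaf-6, whose human counterpart NDUFAF6 acts in early complex I assembly, differed by -0.25 ± 0.14 (SE) and had an adjusted p of 0.314 with limma. nuaf-5, whose human counterpart NDUFAF5 hydroxylates a complex I subunit, differed by 0.08 ± 0.14 (SE).

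The 7 complex IV assembly factors ranged from -0.21 to 0.20, and none passed. coa-6, known in yeast and human cells for copper delivery to complex IV, differed by -0.21 ± 0.18 (SE). cox-19, another copper-handling factor, differed by 0.14 ± 0.21, and coa-3, which in human cells stabilises newly made COX1, by 0.20 ± 0.20 (SE). cox-18, a membrane insertase for COX2, differed by -0.05 ± 0.14, and coa-5 and coa-7 each by -0.01 (SE 0.25 and 0.20). coa-4 was the most variable of the 41 genes, with a within-group SD of 0.72 and LiCl values from -1.38 to 0.48 against control values from -1.21 to 0.82.

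Complex I is the NADH dehydrogenase of the chain, with a matrix arm that oxidises NADH and a membrane arm that pumps protons. None of its 19 measured subunits passed the test. A positive difference was found in 13 of the 19, or 68.4%, against 51.7% of all probes and 55.0% of all named genes. An unadjusted limma p below 0.05 was found in 2 of the 19, or 10.5%, against 22.8% of all probes. The median difference was 0.22. The 19 subunits also varied together from array to array (median correlation 0.26 within groups), so their signs are not independent. No test of the class was made. The subunit with the smallest p was ndua-2, of the matrix arm, with log ratios of -0.43, -0.44, -0.43, -0.46, -0.34 and -0.28 in LiCl replicates 1 to 6, against -0.61, -0.63, -0.92, -0.96, -0.46 and -0.89 in control replicates 1 to 6. All 6 LiCl arrays lay above every control array, though by a gap under 0.01 between LiCl replicate 4 and control replicate 5, and the difference of 0.35 ± 0.13 (SE) did not pass (limma adjusted p = 0.140). LiCl arrays were also close together here, with an SD of 0.07 against 0.21 in control.

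Differences of similar size were found in ndub-6 (0.41 ± 0.18, SE, limma adjusted p = 0.184), ndub-10 (0.43 ± 0.22, SE) and ndua-5 (0.44 ± 0.24, SE), none of which passed. The first and second are accessory subunits of the membrane arm, and ndua-5 belongs to the matrix arm. ndub-6 ranged from -0.55 to 0.09 in LiCl worms (median -0.31) and from -1.29 to -0.49 in control worms (median -0.56), and 4 LiCl arrays exceeded all controls. In ndub-10 LiCl replicate 1 (0.12) was the only LiCl array above every control array.

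The lowest difference in the complex was that of ndus-8, an iron-sulphur subunit on the path of electrons to ubiquinone, at -0.25 ± 0.15 (SE, limma adjusted p = 0.339), and 5 LiCl arrays were under all controls. nduv-3 differed by -0.18 ± 0.35 (SE) with the widest spread in the complex. Differences within 0.1 of 0 were found in ndua-7, ndua-8, ndub-3, nduc-2, nduf-9 and nduf-11. nduv-2, an iron-sulphur subunit of the NADH-oxidising module, differed by 0.27 ± 0.28 (SE).

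Divided by the position of their human counterparts, a grouping made after the values were seen, 8 of 10 membrane arm subunits had a positive difference (median 0.24) and 4 of 7 matrix arm subunits did (median 0.20). nduf-9 and nduf-11 were not placed. The mean of the 10 membrane arm genes ranged from -0.92 to -0.33 on LiCl arrays and from -1.15 to -0.66 on control arrays, with 3 LiCl arrays above every control array. Control replicates 4 and 5 were the lowest of all arrays in that mean, at -1.15 and -1.11, and LiCl replicate 1 was the highest. The mean of the 7 matrix arm genes ranged from -0.74 to -0.27 on LiCl arrays and from -0.84 to -0.35 on control arrays. There, 1 LiCl array lay above every control array. The median over the 19 subunits was 0.13 without LiCl replicate 1 and 0.05 on the 8 arrays with the higher array weight, where 13 of 19 were above 0. Those 8 arrays lack LiCl replicates 1, 2 and 6 and control replicate 5. With 1 array left out, 12 to 16 of the 19 were above 0. On the 8 arrays the median was 0.10 for the membrane arm and 0.05 for the matrix arm, and without control replicate 5 that of the matrix arm was 0.11.

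**Figure D4:**
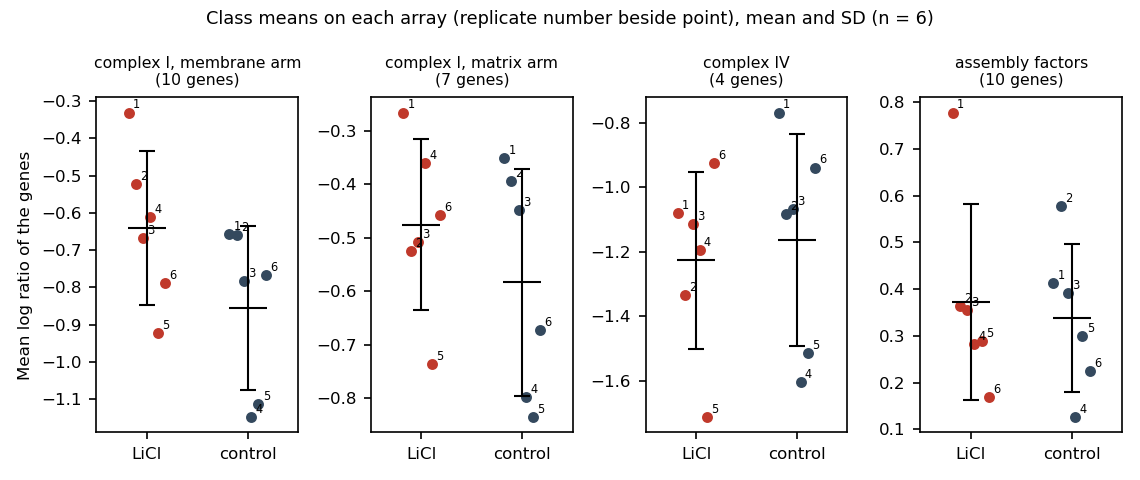
Mean log ratio (vertical axis, deposited units, a scale of its own in each panel) of the genes of 4 classes on each LiCl array (red, left) and control array (dark, right), with replicate numbers, the mean and the SD (n = 6 arrays each). The groups overlap in each panel, control replicates 4 and 5 are low in both arms of complex I, and LiCl replicate 1 stands above the rest in the assembly factors (0.78).

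Complex IV, the cytochrome c oxidase, and complex V had more negative than positive differences, and none of their 5 genes passed. cox-6B differed by -0.28 ± 0.21, cox-7C by -0.16 ± 0.22 and cox-4 by -0.13 ± 0.14 (SE), and cox-6C, at 0.32 ± 0.34 (SE), was the exception. The difference of cox-6C was 0.10 without LiCl replicate 6, 0.20 without control replicate 4, 0.59 without LiCl replicate 5 and -0.09 on the 8 arrays of higher weight. In cox-6C LiCl values ran from -2.04 to 0.40 and control values from -1.63 to -0.34. atp-1 (probe 5587) had log ratios of -2.0, -2.33, -2.04, -1.85, -1.96 and -1.35 in LiCl replicates 1 to 6, against -1.51, -1.58, -1.58, -2.0, -1.06 and -0.94 in control replicates 1 to 6. The groups overlapped through LiCl replicate 6 and control replicate 4, and the difference of -0.48 ± 0.21 (SE) did not pass (limma adjusted p = 0.201). The 95% interval of the difference in atp-1 ran from -0.94 to -0.02.

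The 4 mitochondrial ribosomal proteins had differences of opposite sign by subunit, and none of them passed. Both large subunit genes had a higher mean in LiCl. mrpl-48 had 1.19, 0.73, 0.80, 0.39, 0.61 and 0.57 in LiCl replicates 1 to 6, against 0.22, 0.03, 0.36, 0.33, 0.69 and 0.21 in control replicates 1 to 6, a difference of 0.41 ± 0.17 (SE, limma adjusted p = 0.160). In mrpl-58, whose human counterpart releases stalled peptides from the mitochondrial ribosome, the difference was 0.49 ± 0.20 (SE, limma adjusted p = 0.167), where 5 LiCl arrays exceeded all controls and LiCl replicate 2 was far up at 1.57.

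Both small subunit genes had a lower mean in LiCl. mrps-18.C had -0.04, -0.48, -0.40, -0.65, -1.06 and -0.60 in LiCl replicates 1 to 6, against 0.11, 0.21, -0.06, -0.08, -0.11 and -0.24 in control replicates 1 to 6. Of the LiCl arrays, 5 lay below every control array, and LiCl replicate 1 lay among the controls. The difference of -0.51 ± 0.17 (SE) did not pass on all 12 arrays (limma adjusted p = 0.0936). It passed without LiCl replicate 1 (-0.61, adjusted p = 0.0383) and with array weights (-0.56, adjusted p = 0.0464). mrps-27 differed by -0.29 ± 0.17 (SE, limma adjusted p = 0.341). With 2 of 42 large and 2 of 29 small subunit genes of the annotation measured, these values do not describe the ribosome as a whole.

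Beyond the groups, many of these genes varied together from array to array. After the mean of each group was taken away, the correlation over the 12 arrays had a median of 0.20 over the 820 pairs of the 41 genes, against 0.01 over all pairs of 7981 named genes. It was 0.45 within the membrane arm of complex I, 0.05 within the matrix arm, 0.46 within complex IV and 0.36 between subunits of complex I and complex IV. Pairs with the highest values were nduv-2 with ndub-3 (0.94), ndub-10 with cox-19 (0.92) and ndub-3 with ndua-8 (0.91). In nduv-2 and ndub-3 replicate 5 was the lowest array of both groups. In ndub-10 and cox-19 the lowest arrays were LiCl replicate 6 and control replicate 4. The lowest values were those of mrpl-48 with nduf-11 (-0.77), ndua-7 (-0.74) and ndub-2 (-0.71) and of atp-1 with nuaf-7 (-0.72). Against the complex I subunits atp-1 had a median of -0.05.

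Among the genes that varied together were those of small intermembrane space proteins with a CHCH domain, which are trapped there by disulphide bonds made on import. The 8 genes whose human counterparts carry this domain (ndub-7, ndub-10, ndua-8, cox-6B, coa-4, coa-5, coa-6 and cox-19) had a median correlation of 0.66 over 28 pairs, all above 0, and a median of 0.25 with the other 33 genes. This group was formed after the correlations were seen. Its median difference was -0.01 and none of the 8 passed the test. On LiCl replicate 1 the mean of the 8 genes was 0.38, above the -0.49 to -0.12 of the other LiCl arrays and the -0.69 to 0.02 of the control arrays. All of these correlations are descriptions over the same 12 arrays, and they share the spread of single arrays. Only the group mean was taken away, so any spread shared by arrays of the same replicate number stays in them. The part of such spread in the correlations was not tested.

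**Figure D5:**
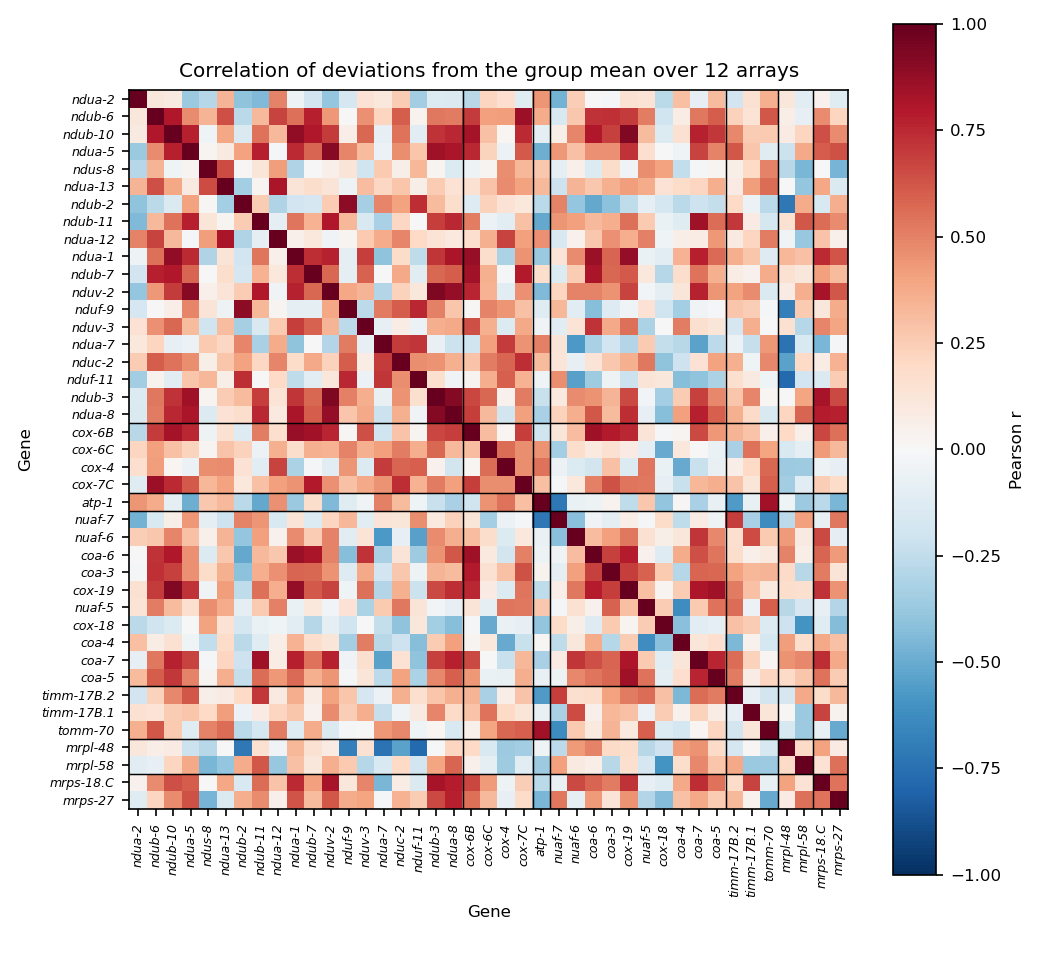
Pearson correlation (colour, from -1 in blue to 1 in red) over the 12 arrays of the deviations from the group mean, for each pair of the 41 genes (both axes, lines between classes). Red blocks join many subunits of complex I, cox-6B and assembly factors such as coa-6 and cox-19. The gene mrpl-48 is blue against nduf-11, ndua-7 and ndub-2, and atp-1 is blue against nuaf-7. Against the complex I subunits atp-1 has a median of -0.05.

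Some of these genes lie next to another gene with a named probe in the annotation. There were 27 such pairings of a member with a neighbour, with cox-6B and nduc-2 counted from both sides. Among them 1 neighbour passed the test, a smaller share than the 8.0% of all probes. This was T14B4.1, next to mrps-18.C on chromosome II, which differed by -0.97 ± 0.16 (SE, limma adjusted p = 0.00252). Within groups the pair correlated at -0.51 over the 12 arrays. cox-6B and nduc-2 are neighbours on chromosome III, and they differed by -0.28 ± 0.21 and 0.05 ± 0.15 (SE).

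Other mitochondrial genes with a named probe were few. Of 11 mitochondrial carriers, 1 fell and none rose, a share near the 8.0% of all probes, with a median difference of -0.09. The one called was slc-25A26, whose human counterpart brings S-adenosylmethionine into mitochondria, at -0.07 ± 0.16 in LiCl worms and 0.46 ± 0.15 in control worms (SD, n = 6 each), a difference of -0.53 ± 0.13 (SE, limma adjusted p = 0.0302). mpc-1 and mpc-2, the subunits of the pyruvate carrier, differed by 0.48 ± 0.17 and 0.57 ± 0.18 (SE), and neither passed (limma adjusted p = 0.106 and 0.0796). None of the 3 further genes of mitochondrial translation and DNA upkeep passed, with mars-2, a methionyl-tRNA synthetase, at -0.43 ± 0.17, mtrf-1L, a release factor, at -0.32 ± 0.15 and twnk-1, the mitochondrial DNA helicase, at 0.47 ± 0.57 (SE). lonp-1, the Lon protease of the matrix, differed by -0.42 ± 0.15 (SE, limma adjusted p = 0.111). The tricarboxylic acid cycle genes ogdh-2 (-0.25) and dlat-2 (0.22) did not pass, nor did any of 9 ribosome biogenesis genes or the cytosolic ribosomal gene rpl-37.1 (0.27). Names looked for under ubiquinone synthesis, cytosolic tRNA synthetases and respiratory subunits with other names had no named probe.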

How the data were processed

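The authors deposited 1 table of processed log ratios, read here as log2, with a column for each of the 12 arrays. Per the labels' protocols, sample RNA was amplified and labelled with Cy5 and pooled reference RNA with Cy3. How these ratios were normalized, filtered and logged is not given in the sources used here. On every array the interquartile range was 1.33 to 1.34, close to the 1.349 of a standard normal distribution, so arrays may have been scaled. Probes were named through the platform annotation (8757 of 22370 probes), updated by gene identifier to WBcel235 (8724 matched).

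LiCl was set against control by limma 3.58.1 (R 4.3.3), with lmFit and eBayes over all probes, a two-sided test, no covariate and a threshold of 0.05. The series' design text calls the samples independently grown. Descriptive values were computed with Python 3.11.15. The code was tested on simulated data. Precision is limited by having 6 arrays a group. Genes named are the called ones, the 3 of smallest p in each class and those of highest and lowest control level, and the others are given because the list is short. The neighbour and the carriers named were picked once their values had been seen. The genes and lists were chosen with earlier results of these data known. Alternatives covered normalization, filters, variance models, array weights, thresholds and arrays left out.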

Additional observations from a re-analysis of the deposited data

Results flagged for a closer look

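Among 94 sets of 6 arrays (a gene or a class mean in 1 group), 10 held an array well separated from the remaining 5. Chance alone would separate about 1 in 20 such sets, or 4.7, if the sets were independent. They are not, since they come from the same 12 arrays and many of the genes vary together. So the excess of 10 over 4.7 cannot be weighed. LiCl replicate 1 was apart in 5 of the 10 sets. It was high in ndub-10 (0.1242, the others from -0.72 to -0.43), nuaf-6 (0.5247, the others from -0.01 to 0.16), coa-6 (0.8885, the others from 0.09 to 0.25) and cox-19 (1.303, the others from 0.35 to 0.68), and so was the mean of the assembly factors (0.7782, the others from 0.17 to 0.36). That mean includes nuaf-6, coa-6 and cox-19. Control replicate 5 was low in the complex I genes ndub-2 (-0.9437), nduv-2 (-1.451) and nduf-11 (-1.345). Control replicate 3 was low in nuaf-6 (0.113, the others from 0.42 to 0.54). LiCl replicate 6 was low in timm-17B.2 (2.004, the others from 2.75 to 3.04), and without it the difference of timm-17B.2 was 0.95 (limma adjusted p = 0.00593).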

How the results depend on the processing

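Over the 41 genes, 2 were called, both higher. This count was 1 with quantile normalization (nuaf-7), 1 on the 8 arrays of higher weight (timm-17B.2, with nuaf-7 at an adjusted p of 0.0505), and 0 with a replicate block (adjusted p of 0.0646 for timm-17B.2 and 0.0655 for nuaf-7) or with probes of low spread left out, where only 3 of the 41 genes were tested. Leaving out 1 array gave 0 to 3 called genes, 0 to 2 higher and 0 to 1 lower. With array weights or an adjusted p under 0.10, 1 gene, mrps-18.C, was called lower. Among all probes the 1789 calls (1006 higher, 783 lower) became 622 (432 and 190) with the spread filter, 667 (429 and 238) among named probes only, 838 (521 and 317) on the 8 arrays, 2836 (1554 and 1282) at 0.10 and 1181 to 1600 (697 to 976 and 479 to 681) with 1 array left out, lowest without control replicate 4 (1181). With the spread filter the median difference was -0.13 over the 3 genes left, -0.18 for complex I and its matrix arm (nduv-3 alone) and 0.32 for complex IV (cox-6C alone). With 1 array left out, 10 of the 41 genes crossed 0, all of them uncalled (nduv-3, ndua-7, nduc-2, nduf-11, ndub-3, ndua-8, cox-18, coa-4, coa-7 and coa-5). The difference of nduv-3 ranged from -0.374 to 0.0109 and turned its sign without control replicate 3, and that of ndub-3 ranged from -0.101 to 0.143 and turned its sign in 4 of 12 fits. On the 8 arrays the difference of cox-6C turned to -0.0859. The change in the gap between timm-17B.2 and timm-17B.1 lay between 0.73 and 1.36 under 17 settings. Shared replicate numbers were not read as pairing in the main fit. Over all probes, deviations of arrays with the same number correlated by more than 0.1 in 1 of 6 cases. Of the LiCl arrays, 3 of 6 correlated best with their own number. A replicate block lowered the SE of some genes, as in ndub-3 (0.22 to 0.15), cox-6B (0.21 to 0.14) and ndub-10 (0.22 to 0.16). In others the block raised it, as in cox-4 (0.14 to 0.16) and nuaf-5 (0.14 to 0.17). Whether arrays of the same number share a source of spread in these genes was not tested. The cause of these changes was not tested.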
